A study of Mus musculus with 6 samples.

Results

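The structural myelin protein genes described here are *Mbp*, *Mobp*, *Mog*, *Mag*, *Cnp*, *Mal*, *Cldn11*, *Opalin* and *Tspan2*. These 9 genes were chosen by name, as genes whose products build or sit in the myelin membrane, and each was found in the deposited table through its Ensembl identifier in GENCODE M21. They are 9 of the 18254 genes in the table, and all 9 had values in every library. The study sequenced mRNA of the medial prefrontal cortex, here mPFC, taken from adult male mice aged 10 to 12 weeks on a C57BL/6J background. *Shank3* transgenic (TG) mice carry a transgene for an EGFP-tagged Shank3, a scaffold protein of excitatory synapses, and were set against their wild-type (WT) littermates, which carry no transgene. There were 3 libraries of each genotype, numbered 1 to 3 in TG and in WT. Each library pooled the mPFC of 2 mice, so that the spread reported here is between pools and not between single animals. The comparison asked whether the 9 genes differed between the genotypes and whether a single factor per library scaled all of them.

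Myelin is the stack of membrane that an oligodendrocyte wraps around an axon in the central nervous system. In its compact part the cytoplasmic faces are held together by basic proteins such as the products of *Mbp* and *Mobp*. Adhesion molecules and cytoplasmic enzymes lie at the outer surface, next to the axon and in the cytoplasmic channels. These genes are switched on together when an oligodendrocyte matures, under transcription factors that include Sox10 and Myrf.

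Because the genes are known to be switched on together, the sequence around the transcription start was examined in the RefSeq promoter windows for GRCm38.p6. Each window is 300 bases long and runs from 250 bases before the start to 50 after it, written 5′ to 3′ on the strand of the gene. Windows were found for 8 of the 9 genes, 11 windows in all, with 3 for *Mag* and 2 for *Tspan2*. None was found for *Mbp*. The letters ACAAAG or, on the other strand, CTTTGT, the core bound by SOX proteins, are in capitals. The window of *Mobp* held the most matches, those of *Opalin* and *Cnp* held fewer, and *Cldn11* is shown because its window held none.
Mobp: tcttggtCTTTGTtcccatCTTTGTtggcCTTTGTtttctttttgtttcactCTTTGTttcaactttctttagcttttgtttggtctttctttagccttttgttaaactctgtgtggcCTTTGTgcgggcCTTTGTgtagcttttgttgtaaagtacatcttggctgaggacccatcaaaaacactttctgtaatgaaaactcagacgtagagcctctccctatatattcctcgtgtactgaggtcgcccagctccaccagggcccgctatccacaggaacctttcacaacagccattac
Opalin: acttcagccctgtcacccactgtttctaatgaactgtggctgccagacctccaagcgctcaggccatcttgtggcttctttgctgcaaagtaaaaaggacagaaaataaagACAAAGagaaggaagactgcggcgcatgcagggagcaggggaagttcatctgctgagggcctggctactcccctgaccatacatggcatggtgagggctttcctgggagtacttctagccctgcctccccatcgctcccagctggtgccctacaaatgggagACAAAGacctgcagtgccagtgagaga
Cnp: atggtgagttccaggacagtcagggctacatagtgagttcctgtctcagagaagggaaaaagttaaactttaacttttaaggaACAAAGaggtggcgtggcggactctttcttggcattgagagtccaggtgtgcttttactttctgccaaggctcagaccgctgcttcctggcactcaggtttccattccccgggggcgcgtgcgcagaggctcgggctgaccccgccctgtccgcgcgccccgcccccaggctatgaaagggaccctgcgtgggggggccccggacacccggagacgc
Cldn11: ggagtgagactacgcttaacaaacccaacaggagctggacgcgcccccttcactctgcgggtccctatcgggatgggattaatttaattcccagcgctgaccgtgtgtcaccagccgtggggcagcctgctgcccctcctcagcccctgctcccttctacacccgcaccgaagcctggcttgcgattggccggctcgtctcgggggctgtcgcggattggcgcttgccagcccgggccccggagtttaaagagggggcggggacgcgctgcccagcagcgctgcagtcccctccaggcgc

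The *Mobp* window, chr9:120149492-120149791 on the plus strand, held 6 SOX matches, and 1 of the 32851 windows in the whole reference table had that many or more. *Opalin* had 2 matches in chr19:41077064-41077363 on the minus strand, and *Cnp* had 1 in chr11:100574689-100574988 on the plus strand. *Cldn11*, at chr3:31149670-31149969 on the plus strand, had 0, as did *Mal* and *Mog*. *Mag* had 1 match, which lay in 2 overlapping windows, and *Tspan2* had 1 in 1 of its windows. Altogether 6 of the 11 windows, from 5 of the 8 genes, held a SOX match, against 18.7% of all windows. The letters CTGGNAC or GTNCCAG, a form of the Myrf motif, were in 5 of the 11 windows, from the 4 genes *Cnp*, *Mag*, *Mog* and *Opalin*, against 19.3% of all windows. The motifs were counted separately, and both were chosen after these windows had been seen. A match describes the letters in the window and not a site that was bound.

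The normalized counts of the 6 libraries summed to between 28363967 and 29447717, which the normalization brings together and which do not show the depth in reads. *Shank3*, the gene of the transgene, had 17470, 19004 and 16310 normalized counts in TG-1 to TG-3 and 8374, 8173 and 6791 in WT-1 to WT-3. Its log2 fold change was 1.18 (SE 0.10) with an adjusted p-value of 0.0643 in limma's test, and every TG library lay above every WT library. TG-3 and WT-3 stood apart from the other libraries across all genes and deviated together from their genotype means, so results are also given without both of them. No gene of the 16714 tested passed an adjusted p-value of 0.05 in limma, which is 0% of them, while 336 genes were under 0.05 before adjustment, 156 higher and 180 lower in TG.

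All 9 structural myelin protein genes were lower in TG than in WT, with log2 fold changes between -0.57 and -0.28 and a median of -0.44. The median over all tested genes was -0.00368, and 51.4% of tested genes were lower in TG. In 8 of the 9 genes the unadjusted p-value in limma's test was under 0.05, which held with the same direction for 1.08% of tested genes. Without TG-1 the count was 5 of the 9, beside 115 of 16714 tested genes that were lower and under 0.05. In 7 of the 9, every TG library lay under every WT library, as in 3.12% of tested genes. The 9 genes were chosen with earlier results of these data known, so these counts describe them and are not a test. None of the 9 passed after adjustment over all tested genes, with an adjusted p-value of 1.00 for each in limma, so no single gene is called changed. In bulk tissue, fewer oligodendrocytes and less of these mRNAs in each oligodendrocyte cannot be told apart.

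**Figure D1:**
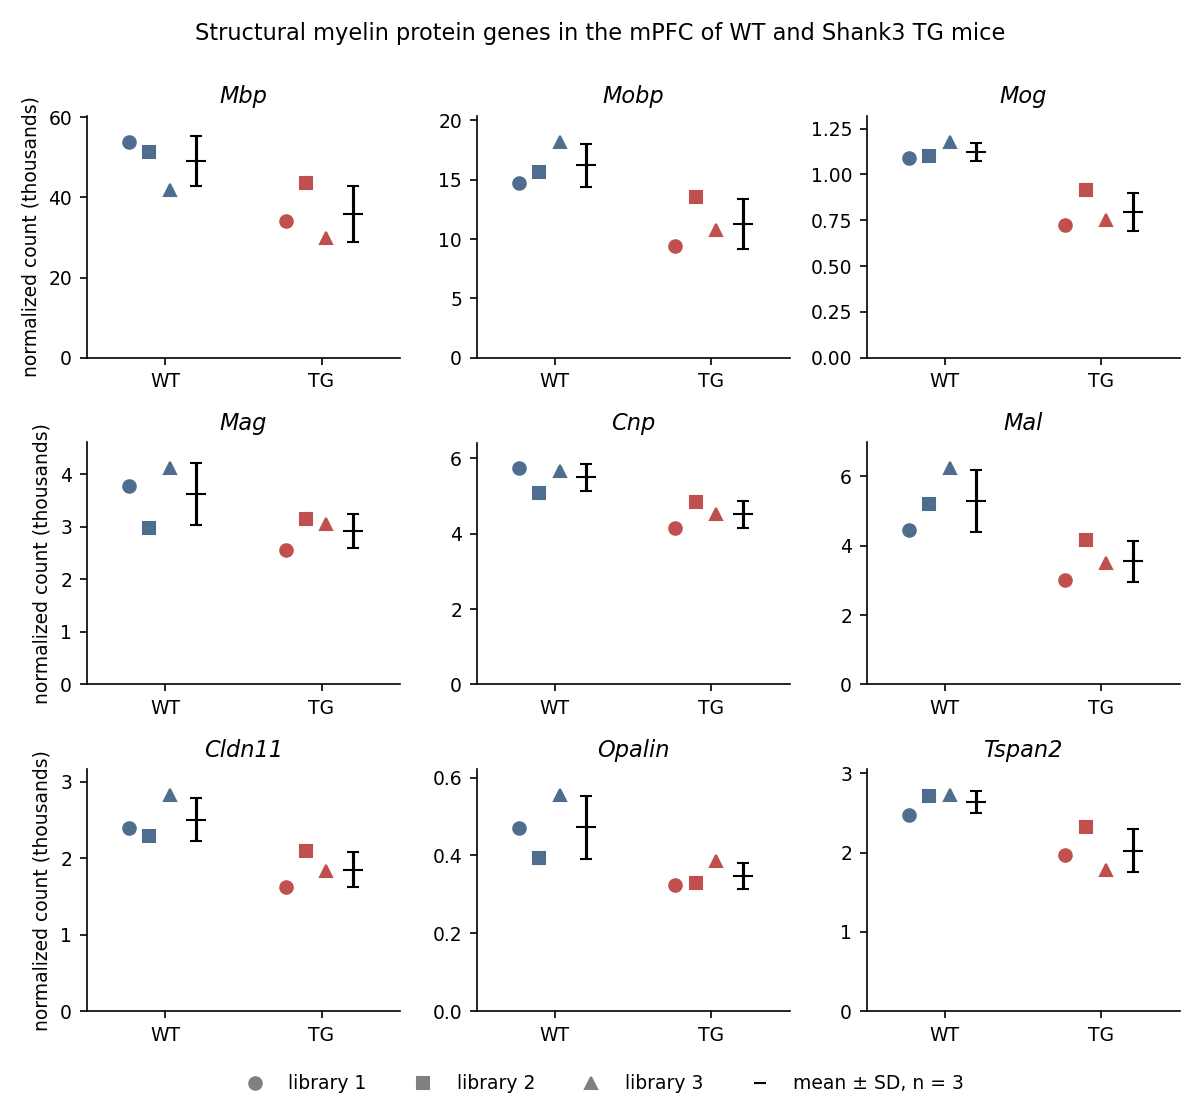
Normalized counts divided by 1000 (y axis, from 0) of each of the 9 genes in the 3 WT and 3 TG libraries (x axis), with the marker shape giving the replicate number and the bar giving mean ± SD (n = 3). The TG points lie under all WT points in 7 panels, and overlap them in those of *Mbp* and *Mag*.

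Among the genes of compact myelin, *Mbp* (ENSMUSG00000041607, on chromosome 18) encodes myelin basic protein, which holds the cytoplasmic membrane faces together. Its locus also gives the golli transcripts, which are found in other cells, and the gene-level value sums over all of them. It had 34146, 43598 and 29865 normalized counts in TG-1 to TG-3 and 53914, 51259 and 41952 in WT-1 to WT-3. TG-2 was above WT-3, so the groups overlapped, and both libraries numbered 3 were the lowest of their genotype. The means were 35870 ± 7027 in TG and 49042 ± 6282 in WT (SD, n = 3), and the log2 fold change was -0.46 (SE 0.15, unadjusted p = 0.0184 in limma).

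*Mobp* (ENSMUSG00000032517, chromosome 9 from 120149707 to 120181484), whose window carried the 6 SOX matches, encodes a second small basic protein of compact myelin. It had 9453, 13572 and 10744 normalized counts in TG-1 to TG-3 and 14760, 15634 and 18216 in WT-1 to WT-3. The groups did not overlap, with TG-2 closest to the WT libraries. The log2 fold change was -0.54 (SE 0.14, unadjusted p = 0.00568 in limma), and the mean normalized count in TG was 69.5% of that in WT.

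*Mal* (ENSMUSG00000027375, chromosome 2 from 127633226 to 127656695) encodes a raft-associated proteolipid that sorts membrane to the myelin sheath. It had 3001, 4181 and 3496 normalized counts in TG-1 to TG-3 and 4448, 5208 and 6233 in WT-1 to WT-3, without overlap. Its log2 fold change of -0.57 (SE 0.15, unadjusted p = 0.00627 in limma) was the lowest of the 9, and TG stood at 67.2% of WT.

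*Cldn11* (ENSMUSG00000037625, chromosome 3 from 31149920 to 31164324) encodes the claudin that forms the tight junctions between myelin layers. It had 1627, 2095 and 1839 normalized counts in TG-1 to TG-3 and 2399, 2296 and 2826 in WT-1 to WT-3. The highest TG library, TG-2, lay under the lowest WT library, WT-2. The log2 fold change was -0.44 (SE 0.12, unadjusted p = 0.00648 in limma), close to the median of the 9 genes.

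*Tspan2* (ENSMUSG00000027858, chromosome 3 from 102734529 to 102801513) encodes a tetraspanin of the oligodendrocyte and myelin membrane. Its counts were 1973, 2317 and 1779 in TG-1 to TG-3 and 2478, 2710 and 2724 in WT-1 to WT-3. The groups did not overlap, and the WT libraries lay close together. The log2 fold change was -0.39 (SE 0.11, unadjusted p = 0.00678 in limma).

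Of the genes whose products lie at the surfaces of the sheath, *Mog* (ENSMUSG00000076439, chromosome 17 from 37010743 to 37023398) encodes an immunoglobulin-like glycoprotein of the outermost myelin face. It had 723, 914 and 751 normalized counts in TG-1 to TG-3 and 1087, 1101 and 1179 in WT-1 to WT-3. The groups did not overlap, and the WT SD of 49.6 was small beside the distance between the means of 796 and 1122. At a log2 fold change of -0.50 (SE 0.11), *Mog* had the lowest p-value of all 9 in limma before adjustment, 0.00165.

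*Mag* (ENSMUSG00000036634, chromosome 7 from 30899176 to 30914873) encodes the adhesion glycoprotein on the innermost membrane, facing the axon. It had 2554, 3155 and 3058 normalized counts in TG-1 to TG-3 and 3775, 2969 and 4107 in WT-1 to WT-3. WT-2 was under both TG-2 and TG-3, so the groups overlapped. Its log2 fold change was -0.30 (SE 0.14, unadjusted p = 0.0597 in limma), the only one of the 9 that was not under 0.05 before adjustment. Among the 27 differences between same-numbered TG and WT libraries, 26 were negative, and the exception was *Mag* between TG-2 and WT-2, at 0.09 on the log2 scale.

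*Opalin* (ENSMUSG00000050121, chromosome 19 from 41061710 to 41077113) encodes a sialylated transmembrane glycoprotein of oligodendrocytes. It had 325, 330 and 386 normalized counts in TG-1 to TG-3 and 470, 392 and 555 in WT-1 to WT-3. The groups did not overlap, but TG-3 and WT-2 were only a few counts apart. The log2 fold change was -0.43 (SE 0.15, unadjusted p = 0.0182 in limma).

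*Cnp* (ENSMUSG00000006782, chromosome 11 from 100574904 to 100591729) encodes a cytoplasmic phosphodiesterase that keeps the channels of non-compact myelin open. It had 4155, 4858 and 4538 normalized counts in TG-1 to TG-3 and 5736, 5088 and 5671 in WT-1 to WT-3. TG-2 came close to WT-2 without reaching it. The log2 fold change of -0.28 (SE 0.09, unadjusted p = 0.0114 in limma) was the smallest in size, and TG stood at 82.1% of WT.

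With 3 libraries in each group, the exact two-sided permutation test on a single gene cannot give less than 0.1. It gave 0.1 for the 7 genes whose groups did not overlap, 0.2 for *Mbp* and 0.3 for *Mag*. Adding the replicate number to the limma model as a block brought all 9 genes under an unadjusted p-value of 0.05, against 2.66% of tested genes that passed and were lower with the block. *Mag* crossed the threshold there (unadjusted p = 0.0250 in limma), and *Mal* had the smallest value (unadjusted p = 0.000174). After adjustment over all tested genes the blocked values lay between 0.350 and 0.922 in limma. Between same-numbered libraries the median log2 difference of the 9 genes was -0.56 for number 1, -0.23 for number 2 and -0.61 for number 3. Without TG-3 and WT-3 all 9 genes were still lower, by log2 fold changes of -0.45 to -0.24 with a median of -0.39. With the 2 libraries left in each group 8 of them did not overlap, but so did 13.3% of tested genes in the same direction.

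Levels were compared between the genes per kilobase of merged exon. Over the 6 libraries *Mbp* was the most abundant at 5013 ± 1105 normalized counts per kilobase (SD, n = 6), followed by *Mobp* at 2005 ± 471, *Mal* at 1594 ± 421 and *Cnp* at 1376 ± 171. *Cldn11* came next at 1166 ± 228, then *Mag* at 803 ± 140, *Mog* at 563 ± 113, *Tspan2* at 490 ± 81.6 and *Opalin* at 139 ± 30.0. Neighbours in this order overlapped in their ranges over the libraries, except that *Mbp* lay wholly above *Mobp* and *Tspan2* wholly above *Opalin*. Within a library the order was much firmer: each gene was above the next one in 6 of 6 libraries, other than *Mal* over *Cnp*, which held in 5 of 6. The merged exon length includes all annotated exons, so transcripts that use only some of them are given too low a value. Together the 9 genes took 0.201%, 0.264% and 0.194% of all normalized counts in TG-1 to TG-3, and 0.314%, 0.301% and 0.283% in WT-1 to WT-3.

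To ask whether a single factor scales the genes, the mean of the 9 log2 values, each taken relative to that gene's mean over the 6 libraries, was used as the common factor of a library. It was -0.36, -0.04 and -0.25 in TG-1 to TG-3 and 0.19, 0.14 and 0.33 in WT-1 to WT-3 on the log2 scale. All 3 TG libraries lay under all 3 WT libraries, with a gap of 0.18 between TG-2 and WT-2, and the TG mean was 74.0% of the WT mean on the linear scale. The within-genotype SD was 0.161 in TG and 0.0989 in WT. This factor took 80.5% of the variation of the 9 genes between libraries. Within the TG libraries alone it took 63.8%, and within the WT libraries alone 30.9%, so the share of the common factor was lower where the genotype difference was left out.

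**Figure D2:**
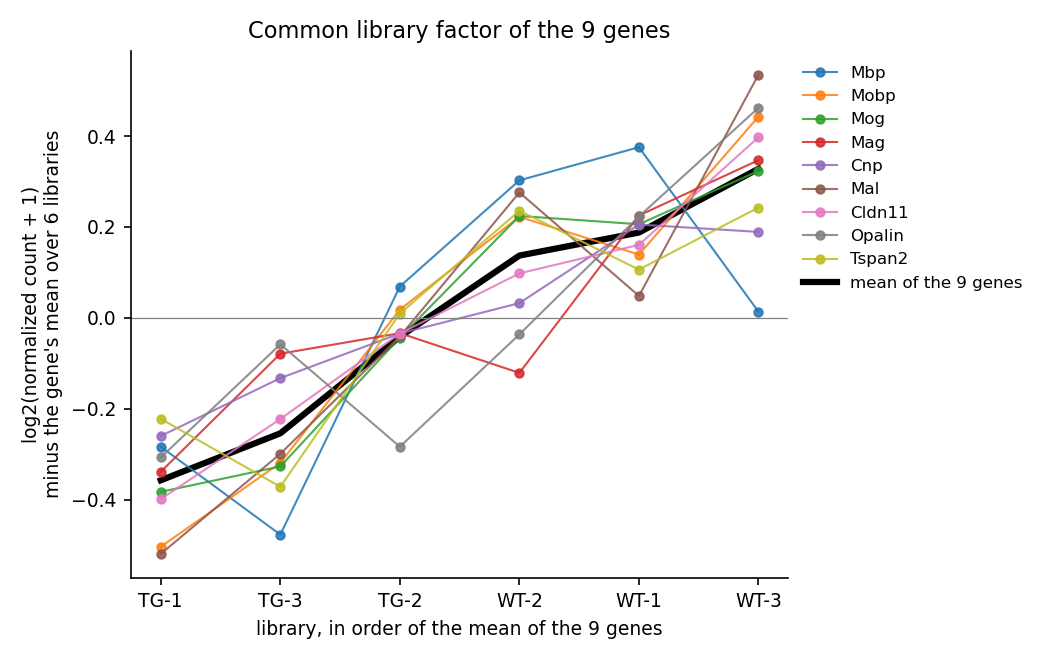
Log2 normalized count (plus 1) of each of the 9 genes minus its own mean over the 6 libraries (y axis), by library in order of the common factor (x axis), which is drawn as the thick black line. The coloured lines of the genes follow the black line from -0.36 in TG-1 to 0.33 in WT-3, and *Mbp* leaves it most, in WT-3, where it lies 0.31 below.

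The genotype accounted for 67.2% of the between-library variation of the 9 genes. Of this, 64.3 percentage points were shared by the genes through the common factor and 2.91 were specific to single genes. The replicate number accounted for 19.3%, of which 14.4 points were gene-specific, and the remainder for 13.5%, of which 2.24 points were gene-specific. The genotype takes 1 degree of freedom in each gene, and the replicate number and the remainder take 2 each. What the common factor left over thus went with the replicate number, in both genotypes, more than with the genotype. The departures had an SD of 0.120 on the log2 scale and ran from -0.31 to 0.21.

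**Figure D3:**
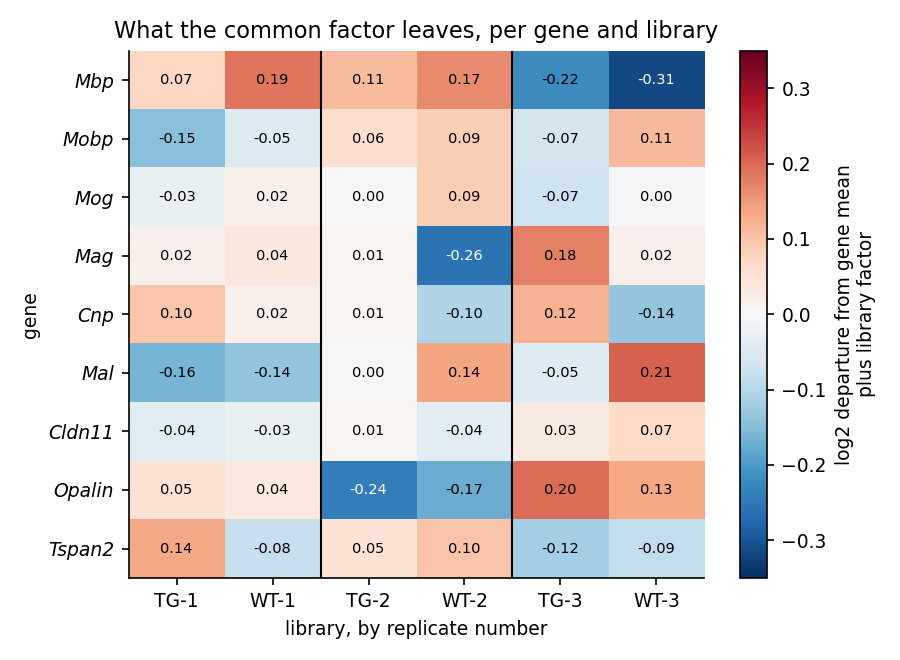
Departure of each gene (rows) from its mean plus the common factor in each library (columns, grouped by replicate number), on the log2 scale, with red above and blue below. *Mbp* is low in both libraries numbered 3 (-0.22 and -0.31), and *Opalin* is low in both numbered 2 (-0.24 and -0.17) and high in both numbered 3 (0.20 and 0.13).

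The ratio of each gene to the mean of the other 8 was then compared between the genotypes. None of the 9 ratios was separated between TG and WT. The differences (TG minus WT, log2) ran from -0.15 (SE 0.13, exact permutation p = 0.3) for *Mal* to 0.17 (SE 0.07, exact permutation p = 0.2) for *Cnp*. Leaving out 1 library moved them to between -0.27 and -0.08 for *Mal* and between 0.13 and 0.22 for *Cnp*. The SEs and permutation tests of the ratios take no account of the replicate number. An offset shared by same-numbered libraries therefore counts as spread in them. *Cldn11* kept the steadiest ratio, with values of -0.83, -0.77 and -0.74 in TG and -0.81, -0.82 and -0.70 in WT, a difference of -0.00235 (SE 0.05) and an SD of 0.0499 over the 6 libraries. *Mog* was nearly as steady, with an SD of 0.0593.

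*Mbp* had the least steady ratio, with an SD of 0.241. Its log2 ratio to the other genes was 4.11, 4.16 and 3.78 in TG-1 to TG-3 and 4.24, 4.22 and 3.68 in WT-1 to WT-3. Both libraries numbered 3 were low, and the genotypes differed by -0.03 (SE 0.22, exact permutation p = 0.8). Within numbers 1 to 3 the differences were -0.13, -0.06 and 0.10. *Opalin* also moved with the number, at -3.44, -3.76 and -3.27 in TG and -3.45, -3.69 and -3.34 in WT, where both libraries numbered 2 were lowest.

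*Cnp* had the largest positive difference. Its log2 ratio was 0.70, 0.59 and 0.72 in TG-1 to TG-3 and 0.61, 0.47 and 0.43 in WT-1 to WT-3, higher in TG within each replicate number although TG-2 lay under WT-1. *Mobp*, *Mog* and *Mal* were lower in TG within each number, by -0.03, -0.16 and -0.28 on the log2 scale for *Mal*. Over all libraries the differences of *Mobp* and *Mog* were -0.11 (SE 0.09) and -0.08 (SE 0.04), with an exact permutation p of 0.2 for each. Within numbers 1 to 3 they were -0.11, -0.03 and -0.20 for *Mobp* and -0.05, -0.10 and -0.08 for *Mog*. For *Mag* the difference of 0.15 (SE 0.12, exact permutation p = 0.6) rested on WT-2, whose ratio of -0.41 was far under the other 5 libraries, at -0.11 to 0.08, and without WT-2 it was 0.04.

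Of the 36 ratios between pairs of the 9 genes, 1 was separated between the genotypes, against 4.43% of all pairs of genes that averaged 500 or more normalized counts, so the count is near the background. *Opalin* averaged less than this, and among the 28 pairs without it 1 was separated too. The count depended on single libraries, being 12 without WT-1 and 11 without TG-2, where 14.1% and 12.1% of all pairs were separated. That pair was *Mog* to *Cnp*, with log2 ratios of -2.52, -2.41 and -2.59 in TG-1 to TG-3 and -2.40, -2.21 and -2.27 in WT-1 to WT-3. All TG values lay under all WT values, though TG-2 nearly reached WT-1, and the mean difference was -0.22 (exact permutation p = 0.1). The median SD of a pair over the 6 libraries was 0.180, and 0.164 over the 28 pairs without *Opalin*, beside 0.168 for all pairs of genes over the same level.

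The tightest pair was *Mobp* to *Mal*, whose linear ratio stayed between 2.92 and 3.32 in the 6 libraries (SD 0.0689 on the log2 scale). *Mog* to *Cldn11* (SD 0.0833), *Mobp* to *Mog* (SD 0.0863) and *Mobp* to *Cldn11* (SD 0.0906) came next. The loosest was *Mbp* to *Opalin* (SD 0.358), with linear ratios of 105, 132 and 77.1 in TG-1 to TG-3 and 115, 130 and 75.5 in WT-1 to WT-3. This ratio was lowest in both libraries numbered 3 and highest in both numbered 2, in TG and WT alike.

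The other genes of the oligodendrocyte were read from 4 lists chosen with earlier results of these data known. Counts from such lists are a description and not a test. The lists held 45 tested genes in all. By log2 fold change 44 of them were lower in TG and 1, *Tcf7l2*, was higher (0.08, SE 0.51), with a median of -0.29. For *Tcf7l2* and *Gjb1* (-0.00525, SE 0.37) the SE was far larger than the difference and the means of the counts ran the other way, so neither has a direction. Of the 45, 25 were lower with an unadjusted p-value under 0.05 in limma (1.08% of all tested genes) and 26 were lower without overlap between the groups (3.12%), while 0 passed after adjustment. With the replicate block 29 of them were lower at an unadjusted p-value under 0.05 (2.66% of all tested genes), and 0 passed after adjustment. Their own common factor took 31.8% of their variation between libraries, and within the 4 lists it took from 23.2% for the transcription factors to 67.8% for the cytoskeletal, enzyme and process genes. A large common share was not particular to genes that were lower in TG, being 73.6% for the mural and 68.9% for the microglial markers. The factor of the 9 structural genes minus that of the 45 was -0.17 in TG-3 and between -0.07 and 0.12 in the other libraries, on the log2 scale.

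The list of cytoskeletal, enzyme and process genes was lower in 13 of 13, with a median of -0.30 on the log2 scale and 10 genes under an unadjusted p-value of 0.05 in limma. Of all tested genes 1.08% were lower and under that value, which is the background for the count of each list. *Sept4*, a septin of the myelin septin filaments, had a log2 fold change of -0.30, and *Trf*, the iron carrier transferrin, one of -0.38. *Tppp*, a tubulin-binding protein, and *Car2*, a carbonic anhydrase, were at -0.05 and -0.08. The first pair was under an unadjusted p-value of 0.05 in limma and the second was not. The lipid list was lower in 7 of 7, with a median of -0.26 and 4 genes under 0.05. *Ugt8a*, which makes galactosylceramide, and *Fa2h*, which hydroxylates its fatty acid, were both at -0.42, while the ceramide synthase *Cers2* was at -0.17 and the glycolipid carrier *Gltp* at -0.19. Neither of these was under 0.05 without the replicate block, and both were with it (unadjusted p = 0.0336 and 0.0396 in limma). This made 6 of the 7, beside 2.66% of all tested genes that were lower and under 0.05 with the block.

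The membrane and junction list was lower in 15 of 15 by log2 fold change, *Gjb1* among them, with a median of -0.29 on the log2 scale. In it 8 genes were under an unadjusted p-value of 0.05 in limma (1.08% of all tested genes), and 10 with the replicate block (2.66%). *Plekhb1* was at -0.34 and the juxtaparanodal adhesion molecule *Cntn2* at -0.22. *Nfasc*, an adhesion molecule of the node and paranode that neurons also make, was at -0.07, and *Omg*, which neurons make too, was at -0.01. The part of neurons in the values of this list was not tested. The transcription factor list was lower in 9 of 10, with a median of -0.18 and 3 genes under 0.05. *Myrf*, whose product drives these structural genes, was at -0.41 (SE 0.13). *Sox10* was at -0.21 (SE 0.14), *Olig1* at -0.14 and *Zfp488* at -0.05, and none of these 3 was under 0.05.

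**Figure D4:**
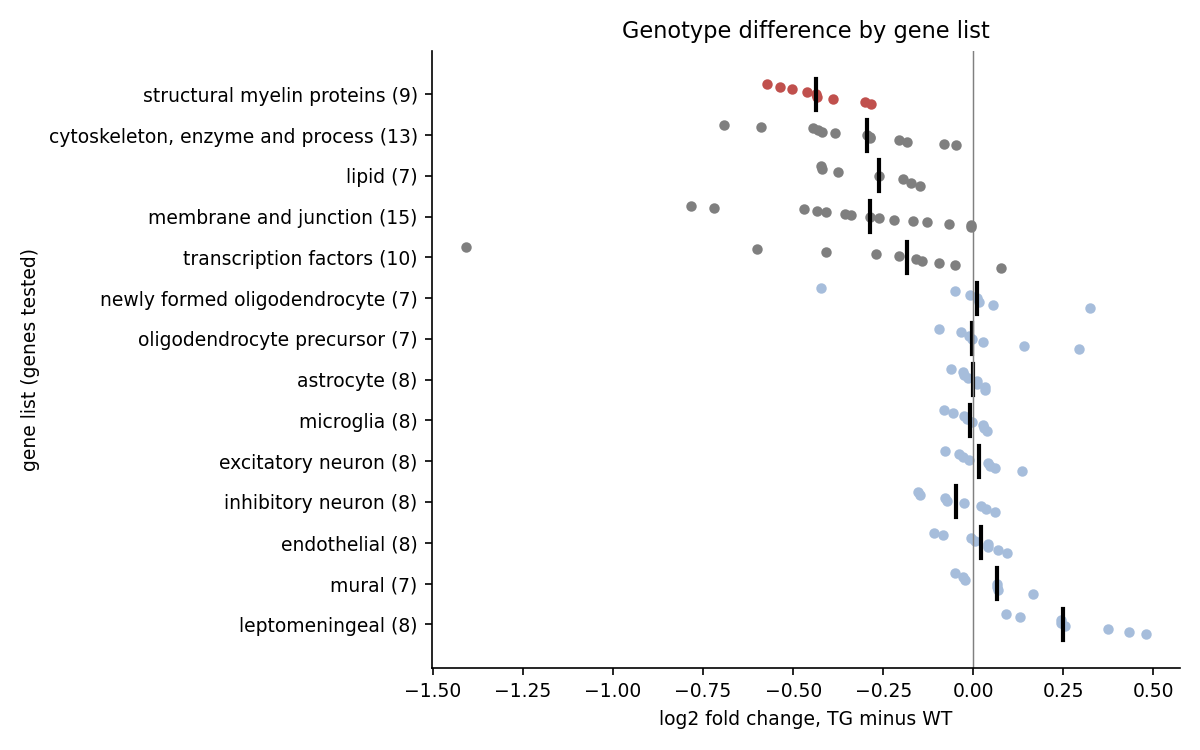
Log2 fold change (TG minus WT, x axis) of each tested gene in the 9 structural genes (red), the 4 lists of other oligodendrocyte genes (grey) and 9 marker lists of other cells (blue), with the median of each as a black bar. The red points lie between -0.57 and -0.28, the medians of the grey lists between -0.30 and -0.18, and those of the precursor, newly formed oligodendrocyte, astrocyte, microglia, excitatory and inhibitory neuron lists between -0.05 and 0.02. The Schwann cell, choroid plexus and striatal lists are not drawn.

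The genes most like the 9 were found by the SD over the 6 libraries of the log2 ratio to their mean, among 12337 genes that averaged 100 or more normalized counts. *Bcas1*, a marker of myelinating oligodendrocytes, had the smallest SD, 0.0280, and a log2 fold change of -0.45. *Pde8a*, a cyclic AMP phosphodiesterase, followed with an SD of 0.0336. *Nubpl*, for an assembly factor of mitochondrial complex I (SD 0.0447), *Plekhh1* (0.0568), *Hapln2*, for a link protein at nodes of Ranvier (0.0596), and *Gjc3*, for an oligodendrocyte connexin (0.0607), came after them. *Zfp61* (0.0667), *Trf* (0.0684) and *Plekhb1* (0.0727) completed the list. The log2 fold changes of these 9 like genes ran from -0.50 to -0.34, and 6 of them belong to the lists above. Fold changes near those of the structural genes follow from the way the like genes were chosen. The median SD over all 12337 genes was 0.300, which includes the genotype difference of the 9 genes by construction, and 11.6% of them had an SD of 0.241 or less. For each structural gene against the other 8 the SD ran from 0.0499 to 0.241, while the like genes were chosen as the closest of all and their SD is a description.

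Markers of other cells were read beside these results. For oligodendrocyte precursors the 7 tested markers centred on a log2 fold change of -0.00359, and their summed level ranged from 3896 to 4539 normalized counts in TG and from 3878 to 4540 in WT. The 7 markers of newly formed oligodendrocytes had a median of 0.01, with 3 of 7 lower. The medians were -0.00195 for 8 astrocyte, -0.01 for 8 microglial, 0.02 for 8 excitatory and -0.05 for 8 inhibitory neuron markers, 0.02 for 8 endothelial and 0.07 for 7 mural markers, and -0.08 for 7 striatal markers. None of these lists had a gene under an unadjusted p-value of 0.05 in limma, and with the replicate block 1 newly formed oligodendrocyte marker was, lower in TG, as were 2.66% of tested genes. The Schwann cell list, for the myelin of peripheral nerve, had 4 tested genes and a median of -0.16.

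The 8 leptomeningeal markers lay in the opposite direction. All 8 were higher in TG, with a median of 0.25 on the log2 scale, and 3 of them were under an unadjusted p-value of 0.05 in limma, as were 0.933% of tested genes that were higher in TG, while 0 passed after adjustment. With the replicate block 389 of the 16714 tested genes were higher and under 0.05. Among the 8 markers there were 4 such genes, and 0 passed after adjustment. Their summed level was 4240 to 5119 normalized counts in TG against 3715 to 4233 in WT. Of the 6 tested choroid plexus markers 4 were higher and 2 lower in TG, with a median of 0.50 on the log2 scale. *Ttr*, named after its values were seen, was the only one under an unadjusted p-value of 0.05 in limma, and it carried the summed level of the list, which was 146 to 562 normalized counts in TG against 96.8 to 170 in WT. Without *Ttr* the sum was 101 to 123 in TG and 82.6 to 129 in WT. The part of both lists in the lower level of the structural myelin genes was not tested.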

How the data were processed

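The deposited values are a normalized signal, not whole numbers, called normalized counts throughout, for 18254 genes and 6 libraries. The authors quantified transcripts with Salmon 0.9.1 on GRCm38 with GC bias correction, summed them to genes with tximport and normalized them in DESeq2 1.19.11 under R 3.6.0. Of the values above 0, 0.000925% were whole within 1e-06, so reads were not recovered, the depth in reads was not used and no counting interval was given. Names came from GENCODE M21, which matched 18215 genes.

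Genes averaging 5 or more normalized counts were tested on log2(value + 1) with limma 3.58.1 in R 4.3.3 (eBayes with trend, TG against WT, all 6 libraries), with two-sided p-values and Benjamini-Hochberg adjustment over 16714 genes. Fold changes are on this scale. Ratios, factors and exact permutation tests were computed in Python 3.11.15 with numpy 2.4.6 and SciPy 1.17.1. Only the limma fit was tested on simulated data, drawn with independent noise in each library, and the ratios, factors and permutation tests were not. The common share is the library sum of squares over library plus residual in an additive model of gene and library.

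The 9 genes, the 4 lists of oligodendrocyte genes and the 12 marker lists were chosen with earlier results of these data known. Besides the 9 genes and *Shank3*, the 4 most abundant genes of each oligodendrocyte list and the 10 genes most like the 9 were named. *Tcf7l2* and *Gjb1* were named after their values were seen, and 1 gene of the 10 is not reported here. Alternatives were other pseudocounts, filters, scalings and variance settings, an empirical null, the replicate number as a block and leaving out libraries. The labels number the libraries but do not say that a number marks a shared day or batch. Deviations from the genotype means correlated across genes at 0.30, 0.33 and 0.62 for the same-numbered pairs and at most 0.27 otherwise, so the numbers were taken to pair the libraries.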

Additional observations from a re-analysis of the deposited data

How the results depend on the processing

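All 153 alternative values of the 9 log2 fold changes, over 17 settings, were negative, from -0.70 to -0.20. The filters, the variance settings, the replicate block and the empirical null cannot change a fold change, so their values repeat the main ones. Only the pseudocounts, the scalings and the left-out libraries could move it. Leaving out 1 library moved the ratio differences widely: *Mbp* (-0.03) to between -0.21 (without WT-3) and 0.09 (without TG-3), *Mag* (0.15) to between 0.04 (without WT-2) and 0.21 (without WT-1), and *Mal* (-0.15) to between -0.27 (without WT-1) and -0.08 (without WT-3). *Mobp* ran from -0.18 to -0.06 and *Mog* from -0.10 to -0.05, while *Cldn11* (-0.02 to 0.04), *Opalin* (-0.11 to 0.14) and *Tspan2* (-0.01 to 0.13) changed sign. *Cnp* stayed between 0.13 and 0.22. The number of genes passing the adjusted threshold was 0, and 1 with robust eBayes, with the replicate block or without both libraries numbered 3, and 26 under the empirical null, where 1 of the 9 genes passed (*Mog*, adjusted p = 0.0353 in limma). Outside the empirical null the lowest adjusted p-value of the 9 was 0.350, with the block. Genes under an unadjusted p-value of 0.05 numbered 336, against 833 with the replicate block and 1215 under the empirical null. Leaving out 1 library at a time, the genes passing were 0 to 1 (1 without WT-3), those under 0.05 before adjustment 219 to 417 (219 without TG-1), and the structural genes among them 5 to 8 (5 without TG-1). The common share was 85.4% without both libraries numbered 3 and 73.0% to 84.3% with each library left out (73.0% without TG-1). The separated pairs among 36 went from 1 to 7 without both libraries numbered 3, where 22.2% of all pairs were separated. With each library left out they were 1 to 12: 12 without WT-1 (14.1% of all pairs), 11 without TG-2 (12.1%), 6 without WT-3 (13.4%), 2 without TG-3 (12.4%) or WT-2 (11.7%) and 1 without TG-1 (8.37%). Pair ratios were not refitted with the block. With 3 pools a genotype, the spread between pools limits what can be called, and the read depth behind single values is unknown.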
